A study of Mus musculus with 7 samples.

Results

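Fibroblast growth factor (FGF) receptors and the adaptor proteins that carry their signal into the cell were followed in inner cell masses (ICMs) of pre-implantation mouse embryos. The genes were chosen by symbol: the kinase receptors Fgfr1, Fgfr2, Fgfr3 and Fgfr4, the receptor-like Fgfrl1, and the adaptors Frs2, Grb2, Gab1, Ptpn11 and Shc1. They make up 10 of the 52636 genes in the count table, and all 10 were among the 16248 genes with enough counts to be tested. None changed past the threshold after 4 h of tamoxifen, and neither did any other of the 16248 genes in the same edgeR test. Fgfr1 was higher and Gab1 lower in every tamoxifen library than in every vehicle library, and 8.45% of all genes tested were separated in either direction. Fgfr1 and Fgfr2 far outweighed Fgfr3 and Fgfr4.

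All embryos had the genotype Sox2Cre;CRAFR26, carrying a tamoxifen-inducible construct that switches on ERK, so the vehicle embryos carried it too. Embryos were flushed from oviducts at E2.5 (embryonic day 2.5) and cultured for 24 h in KSOM medium with 250 nM PD173074, an inhibitor of the FGF receptor kinases, in both groups. The tamoxifen group (4 libraries, time label 4 h) was given 250 nM 4-hydroxytamoxifen for 4 h and the vehicle group (3 libraries, time label 0 h) ethanol for 4 h. Immunosurgery took off the trophectoderm (the outer cells of the blastocyst), and a library was made from 2 ng of RNA of a pool of 10 ICMs labelled E3.5 epiblast.

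The mouse line was made from embryonic stem cells targeted with the construct and injected into morulae. Libraries came from 2 clones, clone 4 and clone 8, and are numbered within each clone as in the sample titles. Vehicle libraries were clone4_1, clone4_2 and clone8_1; those given tamoxifen also included clone8_2. Unless a library is named, values are listed in that order. Cre driven from Sox2 acts in cells that express or have expressed Sox2. No library without the construct, and none without PD173074, was analysed here. The labels do not say whether pools came from separate litters, so the p-values measure the spread between these pools.

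FGF receptors are tyrosine kinases that pair when bound by an FGF together with heparan sulfate, and phosphorylate themselves and the docking protein Frs2. Frs2 then recruits Grb2, which brings the Ras activator Sos, and Ptpn11 and Gab1, which sustain Ras and open the PI3K branch. In the blastocyst Fgf4 from epiblast cells acts through Fgfr1, which is present across the ICM, and Fgfr2, known as a receptor of primitive endoderm and trophectoderm. The kinase cascade that ends in ERK lies below both receptors and adaptors in this pathway.

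Total counts ranged from 22981498 to 42294719 per library and 19287 to 22641 genes were detected. Of the marker lists, all 10 epiblast genes were tested, with a summed level of 1660 to 2180 CPM (counts relative to the TMM-adjusted total of the library) in vehicle and 1790 to 2660 CPM in tamoxifen libraries. Of 10 primitive endoderm markers 8 were tested (804 to 1100 against 842 to 979 CPM), and Sox7 and Foxa2 were at 0 in at least 1 library. Dab2 made up most of the sum of this list (639 to 823 against 560 to 748 CPM). Of the 8 tested, 6 had a positive and 2 a negative fold change. Sox17 had 0.298 to 4.34 against 7.8 to 27.1 CPM, and Lama1 3.51 to 5.2 against 6.75 to 16.3 CPM. Both were named after their values were seen, and tamoxifen was higher without overlap for 3.71% of all genes. The other tested markers of this list overlapped between groups, among them Pdgfra (26.5 to 102 against 24.1 to 57.0 CPM) and Col4a2 (12.2 to 38.8 against 28.4 to 34.6 CPM). All 11 trophectoderm markers were tested, and their sum was 8830 to 11500 CPM with vehicle and 6760 to 9810 CPM with tamoxifen, so trophectoderm transcripts were abundant in RNA labelled epiblast. All 11 had a negative fold change while 8 of 10 epiblast markers had a positive one, and the part of cell composition in the results that follow was not tested. Of 7 oviduct or cumulus markers 1 was tested (0.311 to 1.14 against 0.819 to 1.26 CPM in sum), and Fshr and Cyp19a1 were at 0 throughout. In bulk pools, fewer cells of a type and less RNA per cell cannot be told apart.

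The receptors are related genes, and reads from one could in principle be counted at another, so the longest coding transcript of each was compared. The longest exact stretch shared by any pair of receptors was 26 nt, between Fgfr1 and Fgfr3, within the coding sequence of both. It is shown in capitals with 12 nt on either side, in GRCm38 from the longest coding transcript of each gene, at chr8:25570167-25570216 (plus strand) for Fgfr1 and chr5:33733882-33733931 (plus strand) for Fgfr3:
Fgfr1: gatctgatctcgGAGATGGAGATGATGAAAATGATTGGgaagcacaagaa
Fgfr3: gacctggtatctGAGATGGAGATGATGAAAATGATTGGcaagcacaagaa
Fgfr3 and Fgfr4 shared 20 nt, at chr5:33729951-33729994 and chr13:55159109-55159152, both on the plus strand:
Fgfr3: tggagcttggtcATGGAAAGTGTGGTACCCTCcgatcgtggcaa
Fgfr4: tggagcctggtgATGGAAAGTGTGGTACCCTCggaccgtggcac
The remaining pairs shared runs of 12 to 20 nt, and no pair of these longest transcripts shared a run of 50 nt. Other transcripts of the receptors were not compared. The read length is not given in the sources used here.

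Fgfr1 (ENSMUSG00000031565, chr8:25513654-25575718, plus strand, GRCm38) had 41.9, 46.7 and 45.2 CPM in the vehicle libraries. After tamoxifen it had 50.6, 54.4, 69.9 and 60.0 CPM, with the highest value in clone8_1. Every tamoxifen library was above every vehicle library, with means of 44.6 ± 2.46 CPM (SD, n = 3) and 58.7 ± 8.40 CPM (SD, n = 4). The log2 fold change was 0.40 ± 0.17 (SE), with a 95% interval of 0.01 to 0.78. It did not pass the test (edgeR's quasi-likelihood test, Benjamini-Hochberg adjusted p = 0.794 over 16248 genes). The change was smaller without tamoxifen clone8_1 (log2 0.30) and in clone 4 alone (0.24). Its unadjusted edgeR p was 0.0441 with all libraries and 0.0513 to 0.131 with each library left out in turn.

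Fgfr2 (ENSMUSG00000030849, chr7:130162451-133123350, minus strand) had 53.5, 40.5 and 43.2 CPM in the vehicle libraries and 42.1, 28.2, 52.1 and 52.2 CPM after tamoxifen. The groups overlapped: tamoxifen clone4_2 was the lowest of all 7 libraries, and both clone 8 tamoxifen libraries were near the highest vehicle value. The log2 fold change was -0.07 ± 0.24 (SE; 95% interval -0.59 to 0.46; edgeR adjusted p = 0.957). Its sign turned without vehicle clone4_1 (0.04) or tamoxifen clone4_2 (0.08). Because Fgfr2 is also a receptor of trophectoderm, the summed trophectoderm markers are given beside it. They were 11520, 8830 and 9323 CPM in the vehicle libraries and 8223, 6837, 9808 and 6760 CPM in the tamoxifen libraries, in the same order. Tamoxifen clone4_2 was low in both, whereas clone8_2 had the lowest marker sum and 52.2 CPM of Fgfr2, and their part in the result was not tested.

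Fgfr4 (ENSMUSG00000005320, chr13:55152640-55168759, plus strand) had 8.73, 16.6 and 6.26 CPM in the vehicle libraries and 6.23, 5.82, 8.09 and 5.27 CPM in the tamoxifen libraries. Vehicle clone4_2 stood highest, and the tamoxifen libraries were close together (6.35 ± 1.22 CPM, SD, n = 4, against 10.5 ± 5.38 CPM, SD, n = 3). The log2 fold change of -0.73 ± 0.36 (SE) did not pass the edgeR test (adjusted p = 0.794). It rested on 1 library: without vehicle clone4_2 it was -0.24, and with both libraries numbered clone8_1 left out it was -1.14 (edgeR adjusted p = 0.594).

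Fgfr3 (ENSMUSG00000054252, chr5:33721674-33737068, plus strand) was read from 16 to 108 counts per library. It had 0.62, 2.02 and 1.12 CPM in vehicle and 1.42, 0.69, 1.30 and 2.62 CPM in tamoxifen libraries, a log2 fold change of 0.27 ± 0.63 (SE; 95% interval -1.14 to 1.68). At the lowest count, counting error alone is 25.0%, and the SD of log2 CPM was 0.81 within vehicle and 0.75 within tamoxifen libraries. The interval is too wide to show a change of the size estimated for Fgfr1. Without tamoxifen clone8_2 the sign turned (-0.13), and without vehicle clone4_1 it was -0.06.

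Fgfrl1 (ENSMUSG00000008090, chr5:108692382-108706924, plus strand), which binds FGFs but lacks the kinase domain, had 28 to 89 counts per library. Its levels were 1.54, 2.77 and 1.27 CPM in vehicle and 0.805, 1.21, 2.13 and 0.850 CPM in tamoxifen libraries. The groups overlapped, and the log2 fold change was -0.58 ± 0.56 (SE; edgeR adjusted p = 0.839). Without vehicle clone4_2 it was -0.18, and without tamoxifen clone8_1 -0.96. It was -1.18 with both clone8_1 libraries left out (edgeR adjusted p = 0.703) and -1.11 in clone 4 alone.

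**Figure D1:**
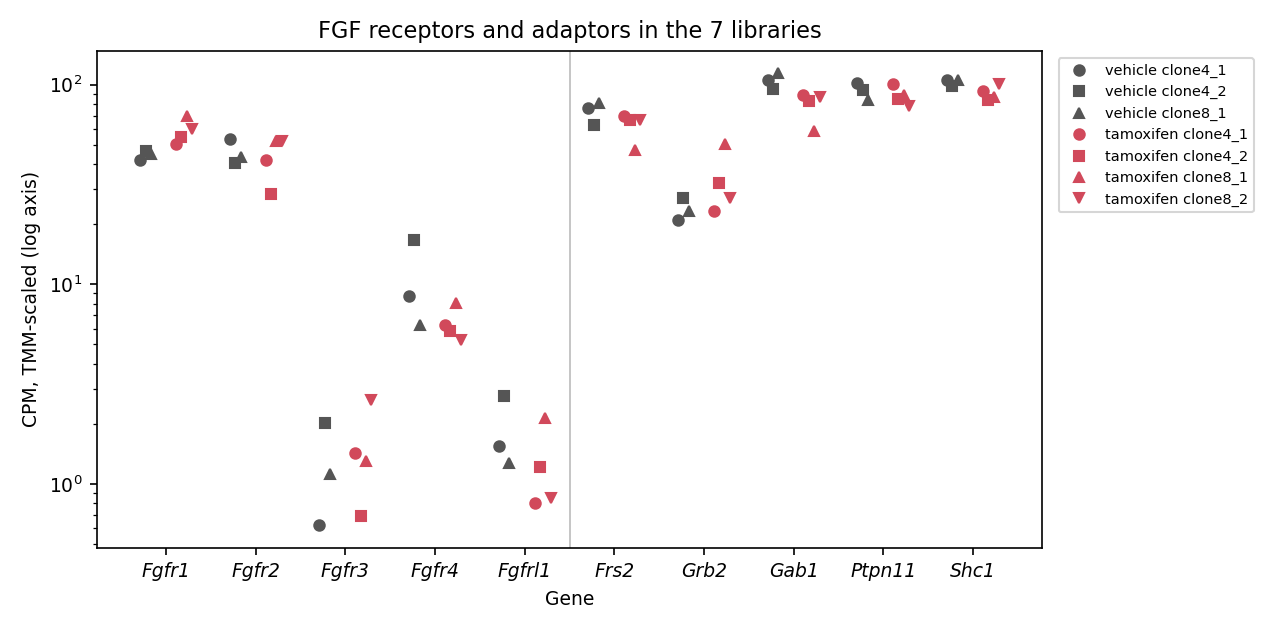
TMM-scaled CPM on a log axis for the 5 receptors (left of the line) and 5 adaptors, 1 point per library; grey marks the 3 vehicle and red the 4 tamoxifen libraries, and the shape gives the library number. Fgfr1 is higher and Gab1 lower in every tamoxifen library than in every vehicle library, and the other genes overlap between groups. Over all genes tested, 8.45% do not overlap. CPM values of different genes are not corrected for transcript length.

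The receptor pool was described as each kinase receptor's share of the summed level of Fgfr1 to Fgfr4, in CPM per kb of the median length of the gene's coding transcripts. Fgfr1 and Fgfr2 together made up 83.9% to 93.0% of the pool in vehicle and 92.9% to 93.7% in tamoxifen libraries. The share of Fgfr1 was 29.7%, 34.5% and 36.1% in the vehicle libraries, and 39.2%, 50.1%, 41.9% and 38.5% after tamoxifen. Every tamoxifen library was thus above every vehicle library in the share of Fgfr1.

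Fgfr2 took 49.4% to 62.6% of the pool in vehicle and 42.9% to 55.2% in tamoxifen libraries. Fgfr4 took 5.70% to 14.0% against 3.85% to 6.11%, and Fgfr3 0.634% to 2.16% against 0.915% to 2.42%, all with overlapping groups. With the longest coding transcript as length, Fgfr1 took 35.3% to 42.5% with vehicle and 45.4% to 56.1% with tamoxifen, so the groups stayed apart under that length too. By the same length Fgfr1 and Fgfr2 together took 77.3% to 89.8% with vehicle and 90.0% to 91.6% with tamoxifen. Fgfr4 then took 8.91% to 20.7% against 6.05% to 9.10%. The shares have no test of their own, and they share the Fgfr1 values given above. The ratio of Fgfr1 to Fgfr2 in CPM, which needs no length within a gene pair, was 0.782 to 1.15 with vehicle and 1.15 to 1.93 with tamoxifen, so it met at 1.15.

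**Figure D2:**
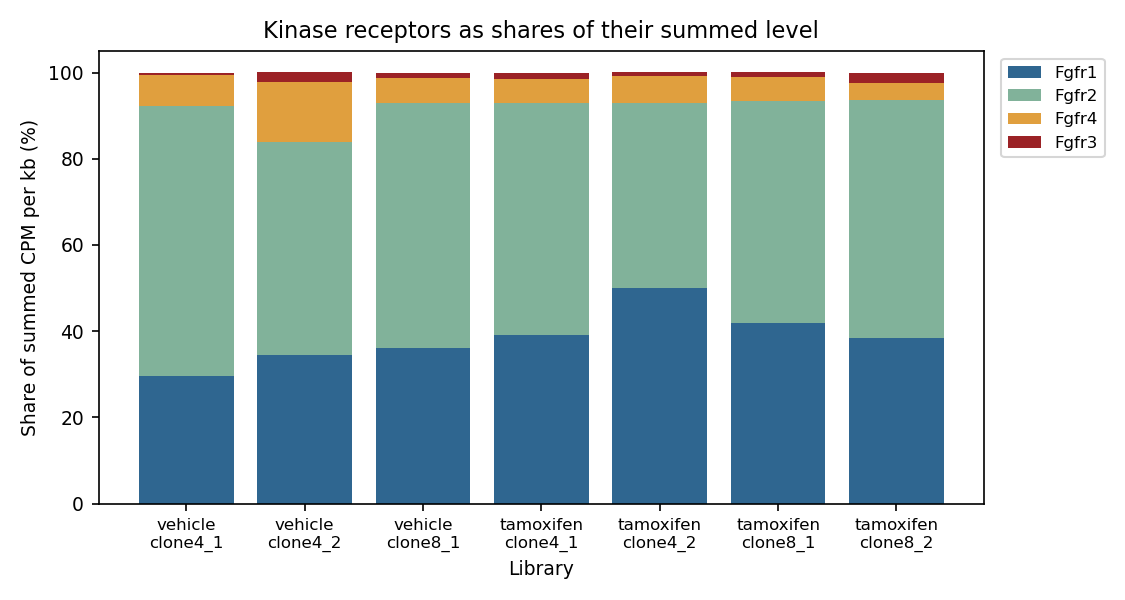
Stacked bars of the share (%) of each kinase receptor in the summed CPM per kb of Fgfr1, Fgfr2, Fgfr4 and Fgfr3, 1 bar per library, with the median coding transcript length. Fgfr1 takes 29.7% to 36.1% in the 3 vehicle bars and 38.5% to 50.1% in the 4 tamoxifen bars, and vehicle clone4_2 has the largest share of Fgfr4 (14.0%).

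The docking protein Frs2 (ENSMUSG00000020170, chr10:117069427-117148534, minus strand) had 76.2, 62.6 and 80.9 CPM in vehicle and 69.4, 66.5, 47.1 and 66.2 CPM in tamoxifen libraries. Tamoxifen clone8_1 lay apart below the other 6. Between groups the log2 fold change was -0.23 ± 0.19 (SE; edgeR adjusted p = 0.814). It was -0.12 without tamoxifen clone8_1, -0.05 with both clone8_1 libraries left out and -0.04 in clone 4 alone.

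Gab1 (ENSMUSG00000031714, chr8:80764438-80880519, minus strand), the docking protein that recruits PI3K and Ptpn11, had 106, 95.4 and 114 CPM in vehicle libraries and 89.1, 82.9, 58.8 and 86.9 CPM in tamoxifen libraries. Every tamoxifen library was below every vehicle library (105 ± 9.27 CPM, SD, n = 3, against 79.4 ± 14.0 CPM, SD, n = 4). The log2 fold change of -0.40 ± 0.18 (SE) did not pass the edgeR test (adjusted p = 0.794). It was -0.28 without tamoxifen clone8_1, the lowest library, and -0.24 in clone 4 alone.

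Grb2 (ENSMUSG00000059923, chr11:115644045-115708597, minus strand), the adaptor that brings Sos to the membrane, had 21, 27.2 and 23.3 CPM in vehicle and 23.3, 32.2, 50.3 and 26.9 CPM in tamoxifen libraries. Tamoxifen clone8_1 was the highest, and the log2 fold change was 0.47 ± 0.27 (SE; edgeR adjusted p = 0.798), and 0.20 without that library.

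In tamoxifen clone8_1, relative to each gene's median log2 CPM over the libraries, Grb2 was higher by 0.90, Fgfrl1 by 0.72 and Fgfr1 by 0.47, and Gab1 was at -0.60 and Frs2 at -0.50. This library thus had the highest level of Grb2 and Fgfr1, and the lowest of Frs2 and Gab1, among all 7. Its coding genes of 2000 to 4000 nt had a median deviation of -0.072 and those under 1000 nt 0.082, and genes of at least 4000 nt were at 0. Each deviation is taken from the gene's own median over the 7 libraries, which pulls such medians to 0. A value of 0 therefore says little about length. The largest deviation by length was in another library, vehicle clone8_1, at -0.31 for genes under 1000 nt. What sets the values of tamoxifen clone8_1 apart was not tested.

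Ptpn11 (ENSMUSG00000043733, chr5:121130533-121191397, minus strand), which encodes the phosphatase Shp2 that favours Ras activation, had 102, 94.6 and 84.3 CPM in vehicle and 101, 84.5, 88.6 and 77.8 CPM in tamoxifen libraries. The log2 fold change was -0.09 ± 0.16 (SE), with a 95% interval of -0.45 to 0.27. Shc1 (ENSMUSG00000042626, chr3:89418443-89430027, plus strand), an adaptor that binds phosphorylated receptors and Grb2, had 106, 98.3 and 106 CPM in vehicle and 92.7, 83.5, 87.1 and 101 CPM in tamoxifen libraries. Its log2 fold change was -0.18 ± 0.15 (SE; 95% interval -0.51 to 0.14). These were the steadiest members: the highest library exceeded the lowest by 1.31-fold for Ptpn11 and 1.27-fold for Shc1.

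The counts over all 10 genes were as follows. Adjusted p-values from edgeR ran from 0.794 to 0.957 and 0 of 10 passed, against 0.0% of all 16248 genes (0 genes). DESeq2 called 4 genes and limma-voom 0 over the whole table, and neither called one of the 10. At an unadjusted p under 0.05, 1 of 10 (Fgfr1) was below the threshold in edgeR, against 5.97% of all genes (970). The groups did not overlap for 2 of 10 genes (20.0%), against 8.45% of all genes. Tamoxifen was higher for 1 (Fgfr1), against 3.71% of all genes, and lower for 1 (Gab1), against 4.74%.

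The count of 2 depended on the libraries: it was 5 without vehicle clone4_2 (against 18.0% of all genes), 4 without tamoxifen clone8_1 (11.6%) and 4 with both clone8_1 libraries left out (23.7%). Fewer libraries separate more genes, in the whole table too, and no rise in the count is read as a result about these 10. Without vehicle clone4_2 the added genes were Frs2, Grb2 and Shc1, and in the other 2 cases Fgfr4 and Fgfrl1. In direction, 3 genes had a positive and 7 a negative fold change, with a median log2 of -0.137 against 0.019 over all genes, of which 51.7% were higher. The median SD of log2 CPM was 0.19 within vehicle and 0.27 within tamoxifen for the 10 genes, against 0.45 and 0.37 for all genes tested.

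**Figure D3:**
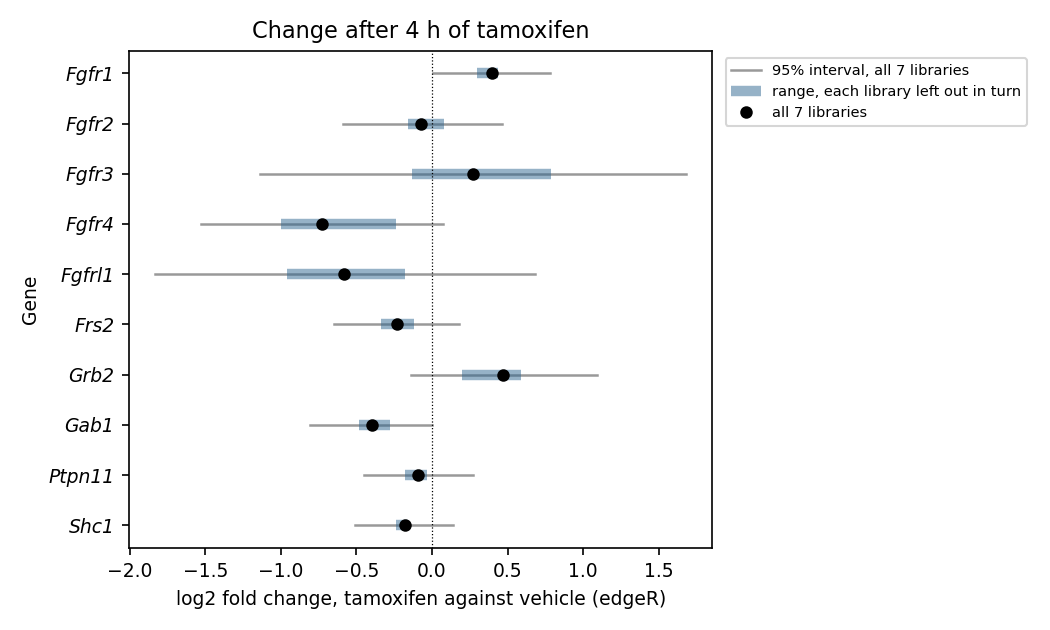
Log2 fold change of tamoxifen against vehicle from edgeR (points), its 95% interval (thin lines) and the range of the estimate when each library in turn was left out (thick bars). The interval of Fgfr1 runs from 0.01 to 0.78 and those of the other 9 genes include 0, with the widest intervals at the low-count Fgfr3 and Fgfrl1.

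Levels of different genes were compared in CPM per kb of the median coding transcript length, as means over the 7 libraries of both groups. Shc1 was highest at 54.1 ± 5.04 CPM per kb (SD, n = 7), and its range did not overlap that of the next gene. Its level was 29.7 by the longest transcript and 25.3 by the union of exons, still highest in 7 of 7 libraries, but by the union its range (21.9 to 27.9) met that of Gab1 (11.8 to 22.8). Fgfr2 (19.4 ± 3.93), Gab1 (18.3 ± 3.60), Ptpn11 (16.2 ± 1.65), Fgfr1 (13.9 ± 2.56), Grb2 (12.5 ± 4.29) and Frs2 (10.4 ± 1.68) followed, each overlapping in range with the next. Neighbours in this order kept it in 4 to 6 of 7 libraries and do not differ beyond their spread. Genes further apart can: Ptpn11 was above Frs2 in 7 of 7 libraries under all 3 lengths. By median length the ranges of Ptpn11 (14.0 to 18.3) and Frs2 (7.33 to 12.6) did not overlap. Gab1 was also above Frs2 in 7 of 7 libraries under all 3 lengths, but their ranges overlapped. Fgfr2 was above Frs2 in 7 of 7 libraries by median length, in 3 by the longest transcript and in 1 by the union of exons. Fgfr4 (2.45 ± 1.18 CPM per kb) lay below Frs2 in 7 of 7 libraries with no overlap.

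Fgfrl1 (1.10 ± 0.518 CPM per kb) and Fgfr3 (0.532 ± 0.273 CPM per kb) were the lowest, with Fgfrl1 above Fgfr3 in 6 of 7 libraries. Against 13079 tested coding genes with a median of 7.53 CPM per kb, Shc1 was at percentile 81.5, and the 6 genes from Fgfr2 to Frs2 between percentiles 65.5 and 55.1. Fgfr4 was at percentile 32.8, Fgfrl1 at 22.8 and Fgfr3 at 14.8.

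The order of Fgfr1 and Fgfr2 depended on the length used. Fgfr1 was above Fgfr2 in 1 of 7 libraries by median length, in 3 by the longest transcript and in 5 by the union of exons. By the longest transcript Fgfr1 was at 10.4 and Fgfr2 at 10.3 CPM per kb, and Fgfr2 moved from rank 2 to rank 7 of 10. The annotation of Fgfr2 in GENCODE M21 is wide, spanning 2960 kb against 104 kb in RefSeq (chr7:130162451-130266808), and 314 bp of its exons are shared with Ctbp2 on the same strand (41.1 to 77.6 CPM), so its count is uncertain there. Fgfr1 and Fgfr2 were each above Fgfr4, and Fgfr4 above Fgfr3, in 7 of 7 libraries under all 3 lengths.

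**Figure D4:**
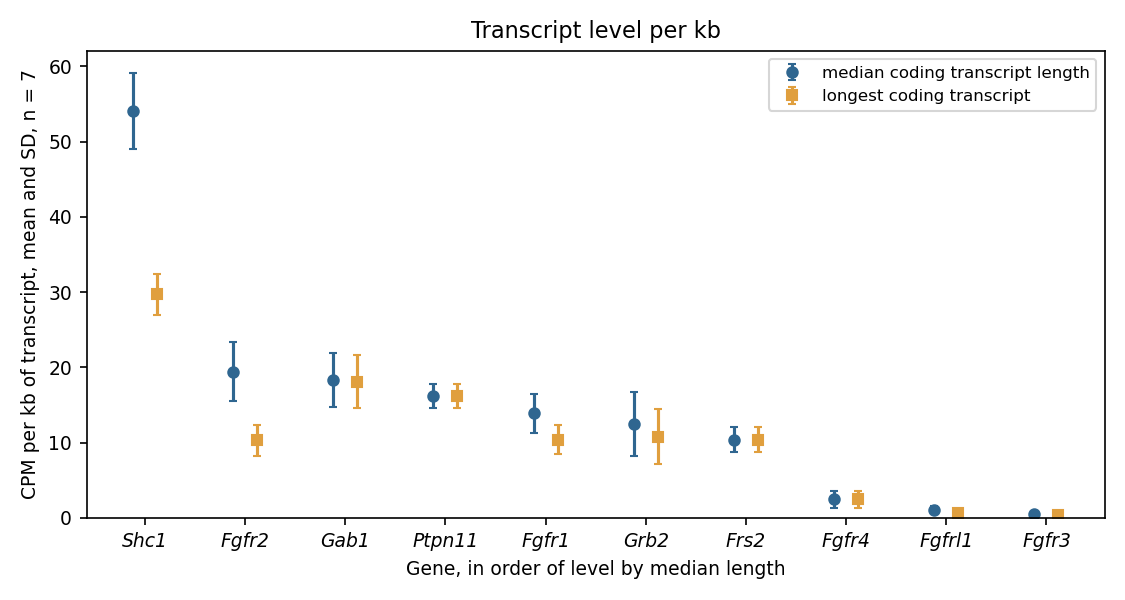
Mean CPM per kb with SD over the 7 libraries for the 10 genes, by median coding transcript length (circles) and by the longest coding transcript (squares). Shc1 is highest under both lengths, Fgfr2 falls from 19.4 to 10.3 CPM per kb with the longest transcript, and Fgfr4, Fgfrl1 and Fgfr3 are lowest under both.

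Other genes could add to or take from the counts of 7 members, Fgfr2 with its shared Ctbp2 exon sequence (1137 to 2484 counts for Ctbp2) among them. Antisense transcripts share exon sequence with Fgfr1 (164 bp with Gm16159, 0 to 5 counts per library), Fgfr3 (998 bp with G630022F23Rik, 0 counts) and Gab1 (266 bp with Gm31105, 0 to 9 counts). Strand use is not given in the sources used here. Grb2 has a pseudogene copy, Gm12791, 98% identical over 655 nt with 2 to 47 counts, against 746 to 1393 counts for Grb2. Shc1 has a pseudogene copy, AC123951.1, 98.5% identical over 919 nt, and Frs2 is 98.6% identical over 427 nt to a processed transcript of Galnt1, a gene with 695 to 1238 counts against 1303 to 3320 for Frs2. Reads from such copies can be divided or dropped in counting.

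The promoters were searched for 2 short motifs of factors at the end of the ERK pathway, the ETS motif CCGGAAGT and the AP-1 motif TGANTCA, on both strands, in RefSeq windows of 250 bases before to 50 after each start (GRCm38.p6). Windows matched 9 of the 10 genes, 13 windows in all. Fgfr1 had no window, so its promoter was not searched. ETS letters were in 3 of 13 windows (23.1%) against 3.89% of 32851 windows, at positions -62 (Frs2), -48 (Fgfrl1) and 23 (Shc1) relative to the start. The matches are shown in capitals on the gene's strand, at chr5:108694170-108694199, chr10:117148518-117148547 and chr3:89418562-89418591:
Fgfrl1: tcgcagattggCCGGAAGTtgtgcggggcg
Frs2: cccccgctcccCCGGAAGTgcttgtctagg
Shc1: ggttagtgaggCCGGAAGTgagtgtaataa
AP-1 letters were in 1 of 13 windows (7.69%, upstream of another start of Shc1) against 7.81% of all windows. No ETS match overlapped an AP-1 match. A match describes letters only, and none of these 3 genes passed the test between groups.

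The wider pathway was read from 5 lists of 79 genes in all, 64 of them tested. None passed the edgeR test with Benjamini-Hochberg adjustment (smallest adjusted p = 0.794), against 0.0% of all genes. An unadjusted p under 0.05 was found for 6 of 64 (9.38%, against 5.97% of all genes), and groups did not overlap for 7 of 64 (10.9%, against 8.45%), 4 higher and 3 lower. By fold change 38 were higher and 26 lower, with a median log2 of 0.11.

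Of 11 FGF ligands 4 were tested, all with a positive fold change and 0 at an unadjusted p under 0.05. Fgf4, the ligand made by the epiblast, had 8.60 to 30.0 CPM with vehicle and 23.2 to 51.7 CPM with tamoxifen (log2 0.89 ± 0.42 SE, edgeR adjusted p = 0.794). Fgf10 had 8.96 to 19.6 against 11.5 to 24.9 CPM, and Fgf3 and Fgf5 were below 5.38 CPM or at it in every library.

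Of 19 co-receptors and heparan sulfate genes 14 were tested, 9 higher and 5 lower by fold change. Gpc4, a cell-surface heparan sulfate proteoglycan, had 2.06, 2.83 and 3.29 CPM in vehicle libraries and 9.95, 10.7, 3.76 and 4.52 CPM in tamoxifen libraries. All tamoxifen libraries were higher, most in clone 4, with a log2 fold change of 1.40 ± 0.46 (SE; edgeR adjusted p = 0.794). Hs6st1, which adds sulfate to heparan chains, was 12 to 14.8 CPM with vehicle and 15.2 to 33.5 CPM with tamoxifen (adjusted p = 0.794).

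Of 20 other adaptors 18 were tested, 9 in each direction, with a median log2 of 0.01. Sos1, the Ras activator carried by Grb2, had 22.6 to 26.4 CPM with vehicle and 24.7 to 32.9 CPM with tamoxifen. Plcg1, the phospholipase bound by activated receptors, had 13.8 to 17.2 against 17.5 to 19.1 CPM, and Grb7 72.7 to 82.5 against 60.3 to 71.6 CPM, both without overlap. Of the 13 cascade genes, all tested, 9 were higher and 4 lower, and Araf alone did not overlap (137 to 184 against 118 to 134 CPM). Esr1, whose ligand-binding domain serves in tamoxifen-inducible fusions, had 5.86, 1.21 and 2.49 CPM in vehicle libraries and 1.54, 1.16, 0.795 and 2.55 CPM in tamoxifen libraries. The groups overlapped, and the log2 fold change of -1.07 was -0.31 without vehicle clone4_1.

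Of 16 negative regulators 15 were tested, 7 higher and 8 lower, and 4 had an unadjusted p under 0.05 (26.7%, against 5.97% of all genes). Cbl, a ubiquitin ligase that sends activated receptors for degradation, had 42.3, 51.2 and 41.2 CPM in vehicle and 33.4, 18.7, 27.0 and 34.6 CPM in tamoxifen libraries. Every tamoxifen library was lower (log2 -0.66 ± 0.23 SE, edgeR adjusted p = 0.794). Spry2, a feedback inhibitor of receptor signalling, averaged 64.8 ± 18.6 CPM (SD, n = 3) with vehicle against 118 ± 10.2 CPM (SD, n = 4) with tamoxifen (log2 0.86 ± 0.21 SE, adjusted p = 0.794). Spred1 (0.595 to 1.28 against 1.16 to 3.14 CPM) and Errfi1 (20.4 to 41.5 against 13.1 to 25.0 CPM) overlapped between groups. Of the listed genes, Fgf3, Fgf4, Fgf5, Fgf10, Hs6st1, Sos1, Plcg1, Grb7, Araf, Spred1 and Errfi1 were picked for naming after their values were seen.

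Clone was compared with condition in the model, over 4 clone 4 and 3 clone 8 libraries. None of the 10 genes passed the edgeR test (smallest adjusted p = 0.983), with log2 differences of clone 8 from clone 4 between -0.30 and 0.46. Over all genes 0.0% passed, 3.13% had an unadjusted p under 0.05 (509) and DESeq2 called 13 genes, against 0 of the 10 at an unadjusted p under 0.05 in edgeR.

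The response to tamoxifen was also compared between clones by the interaction term, which rests on the only vehicle library of clone 8. It called 3.16% of all genes (14.8% had an unadjusted p under 0.05) and 0 of the 10 by either rule, with a smallest adjusted p of 0.483 (edgeR). Fgfr4 was nearest: the log2 ratio of tamoxifen to vehicle means was -1.07 in clone 4 and 0.09 in clone 8, a fitted difference of 1.16 ± 0.69 (SE). Fgfr2 followed with -0.42 in clone 4 and 0.27 in clone 8 (difference 0.69 ± 0.42 SE, edgeR adjusted p = 0.493). Fgfr1 was above its vehicle mean in both clones, by 0.25 and 0.52 on the log2 scale, and Gab1 was at -0.23 and -0.64.

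The genes whose pattern over the 7 libraries was nearest to each kinase receptor were found among protein-coding genes of at least 10 CPM on average, by the root mean square difference of centred log2 CPM. For Fgfr1 they were Med16 (0.055), Zcchc17 (0.062) and Celf1 (0.085), against a median of 0.380 over 7812 genes. For Fgfr2 they were Folr1 (0.11), Tmem9b (0.13) and Zfp719 (0.14), against a median of 0.420. Fgfr4 had Lif (0.12), P2rx3 (0.18) and Hs3st3b1 (0.19), against 0.595. Fgfr3 had Cd74 (0.40), Dusp6 (0.41) and Ece2 (0.41), against 0.731, no gene being as close as for the other 3 receptors. Fgfr3 had only 16 to 108 counts per library. Its counting error at the lowest count is 25.0%, against 2.81% for Fgfr1, 3.91% for Fgfr2 and 8.61% for Fgfr4. The part of counting error in these distances was not tested.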

How the data were processed

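RNA-seq of 7 pools of mouse ICMs was deposited by the authors as whole-number counts per Ensembl gene, not normalised. Per the submitters' processing notes the tools were bcl2fastq 2.19.1 and STAR 2.5.3a with the build mm10; the counting program, annotation, strand setting and handling of duplicates are not given in the sources used here. Reads carry no stated molecular identifiers, so counting error understates the error of an amplified library.

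Of 52636 genes, 52489 matched GENCODE M21 (GRCm38, the same build) by gene ID and 147 did not. Groups came from the treatment label. Counts were tested in R 4.3.3 with edgeR 4.0.16: TMM factors, edgeR's expression filter by group, a quasi-likelihood test of condition with no other term, and Benjamini-Hochberg adjustment over all 16248 genes, called under 0.05. Clone, and its interaction with condition, were tested in the same way. The common biological coefficient of variation, from 1 dispersion fitted to all genes tested, was 0.456. CPM is TMM-scaled. Patterns were compared on log2 CPM with a prior count of 2. The fits were tested on simulated data, with 100 genes changed by a log2 of 1 and 100 by a log2 of 2. The changed genes were drawn from those above a minimum mean level, which Fgfr3 (1.4 CPM) and Fgfrl1 (1.51 CPM) did not reach. At the adjusted threshold 32% and 88% of the changed genes were called, with 4 false calls. These rates do not cover Fgfr3 and Fgfrl1. A gene that did not pass the test is thus not shown to be unchanged. Alternatives used DESeq2 1.42.0, limma-voom (limma 3.58.1), other scaling factors and filters, clone or a replicate block in the model, clone 4 alone, and each library or both clone8_1 libraries left out. Promoters are from RefSeq.

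Besides the 10 genes, the text names by rule Esr1, listed pathway genes with an adjusted p under 0.05 or with an unadjusted p under 0.05 and no overlap, and the 3 genes nearest in pattern to each kinase receptor. One further gene of the cascade list is not reported here. The members, lists and tests were chosen with earlier results of these data known. The non-overlap counts under left-out libraries and total-count scaling were chosen after seeing the data.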

Additional observations from a re-analysis of the deposited data

Results flagged for a closer look

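Of 18 values examined in the tamoxifen group, 1 stood apart. Frs2 had 47.1 CPM in tamoxifen clone8_1, below 66.2 to 69.4 CPM in the other 3 tamoxifen libraries. The gap to the nearest of them was 0.86 of the group's range, above Dixon's 95% critical value of 0.829 for 4 samples. Chance alone flags about 1 in 20 groups.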

How the results depend on the processing

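None of the 10 genes passed the adjusted threshold in any of 17 alternatives. Over all genes, the condition effect gave 4 calls with DESeq2 and 2 with both clone8_1 libraries left out, against 0, and 0 with any single library left out. The clone effect gave 28 calls with no filter on low counts and 13 with DESeq2, and the interaction 989 with DESeq2, 991 without a filter and 52 to 695 with 1 library left out, against 514 (267 without vehicle clone4_1, 107 without tamoxifen clone4_1 and 52 without tamoxifen clone4_2); it could not be fitted without vehicle clone8_1. With the replicate block, 0 genes were called and 721 rather than 970 had an unadjusted p under 0.05. Same-numbered libraries did not deviate together (r = 0.008, 0.021 and -0.068) and not every library correlated best with its own number, so the numbers were not taken as pairs. Fold changes that turned sign were those of Fgfr2 (log2 -0.16 to 0.08 with 1 library left out) and Fgfr3 (-0.02 with the replicate block, -0.32 in clone 4 alone, -0.13 to 0.79 with 1 library left out). The other 8 of the 10 genes kept their direction in all 17. Level ranks were kept by 5 of 10 genes with the longest transcript and by 4 with the union of exons. The causes were not tested. Depth is lowest for Fgfr3, at 16 to 108 counts, with a counting error of 25.0% at the lowest.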
